A study of Bos taurus with 6 samples.

Results

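The 10 genes described here encode proteins of the Z-disc, the M-band and the titin filament: ACTN2, MYOT, TCAP, PDLIM1, CSRP3, FLNC and CMYA5 at or near the Z-disc, MYOM2 at the M-band, and ANKRD1 and ANKRD23 on titin in the I-band. They were chosen by gene name and sarcomere position, with earlier results of these data known. Each has 1 transcript among the 5288 transcripts (5206 gene names) of the deposited table. RNA was sequenced from longissimus muscle of 3 adult Qinchuan cattle (24 months after birth) and of 3 Qinchuan embryos (90 days after fertilization), all collected at a slaughterhouse and untreated as far as the labels say. The table gives 1 value per stage and not per animal, in FPKM, a level corrected for transcript length and for the number of mapped fragments of the library, and it holds transcripts that the authors called different between the stages. No spread between animals can therefore be given and no test was run. The number of fragments behind each value, and with it the precision, is unknown.

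The sarcomere, the contractile unit of striated muscle, runs from Z-disc to Z-disc. At the Z-disc, alpha-actinin ties the thin filaments of neighbouring sarcomeres together, and at the M-band in the middle of the sarcomere, myomesin proteins tie the thick filaments together. The giant protein titin spans from the Z-disc to the M-band, and its elastic I-band part carries ankyrin repeat proteins that are also found in the nucleus and are counted among the stretch sensors of muscle. Many proteins of the Z-disc link force bearing with signalling, and several of these genes are mutated in human myopathies and cardiomyopathies.

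All 10 genes were higher in adult muscle than in the embryo, and their log2 fold changes (the log2 of adult divided by embryonic FPKM) ran from 2.19 to 11.48 with a median of 6.05. The largest changes were those of the titin-bound ANKRD1 and ANKRD23, and the smallest was that of FLNC, whose direction turns under each of 5 other scalings between the stages (from -0.12 to -2.76). Of all transcripts of the table, 90.3% were higher in adult muscle, so the direction alone does not set these genes apart. The 5 scalings subtract between 2.31 and 4.94 from every log2 fold change. Thus any transcript named here with a value below 2.31 turns lower in adult muscle under all of them, and any below 4.94 under the largest. All 5 come from called transcripts, none of those above 0 in both stages less than 2-fold different, so unchanged genes cannot enter them. Of 30 housekeeping symbols, 19 have a row. Whether scalings on all expressed genes would also turn these directions was not tested. The 9 genes other than FLNC were at least 16-fold higher in adult muscle, as were 20.1% of the 5248 transcripts above 0 in both stages. The median log2 fold change over these 5248 transcripts was 2.71, with quartiles of 1.81 and 3.72. The genes were chosen with earlier results of these data known, so these differences are descriptions. The study had already listed ANKRD1 and ANKRD23 among its top 10 up-regulated genes, for which it asked for an FPKM above 2. It also named ACTN2 and PDLIM1 among selected genes that differed between the stages.

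**Figure D1:**
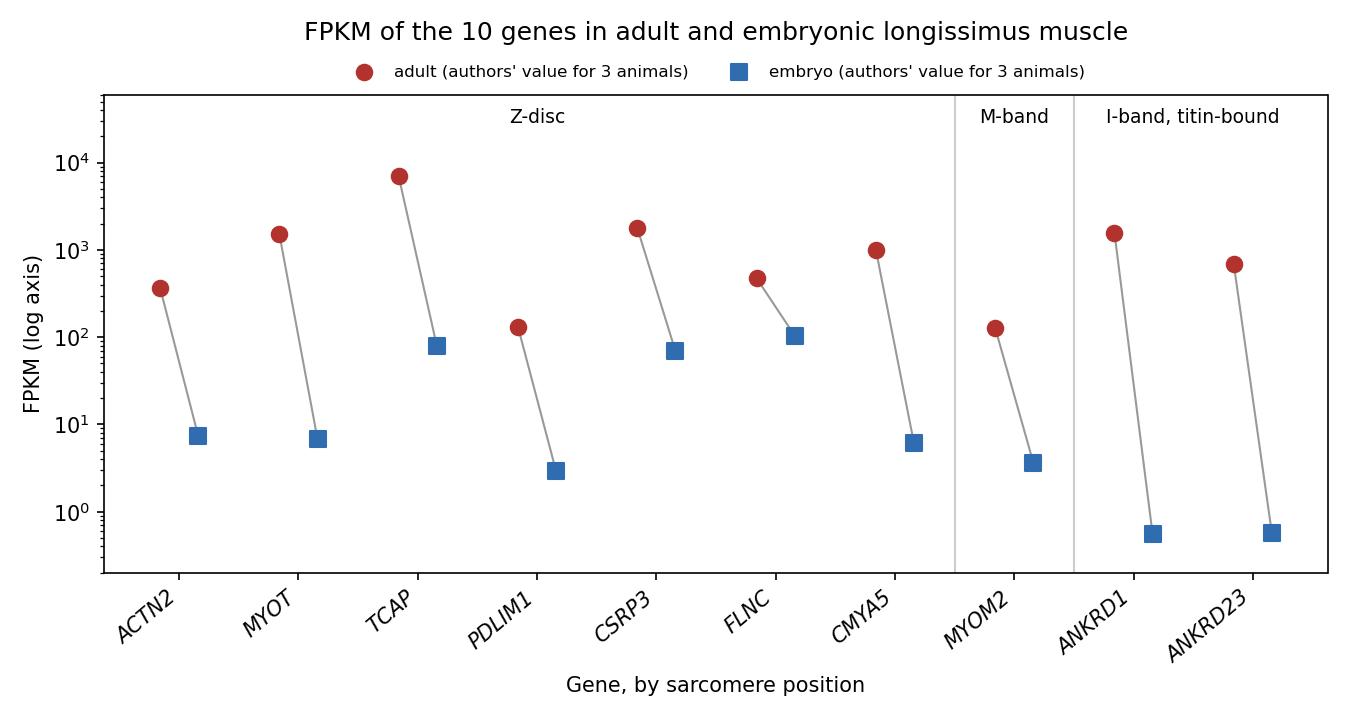
FPKM (log axis) of the 10 genes, grouped by sarcomere position, in adult muscle (circles) and in the embryo (squares); each point is the authors' value for a stage of 3 animals, and lines join the values of a gene. Adult values lie between 128 and 6959 and embryonic values between 0.552 and 104, and the lines of ANKRD1 and ANKRD23 are the steepest while that of FLNC is the flattest.

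ACTN2 encodes an alpha-actinin of striated muscle, which cross-links actin filaments in the Z-disc. It had 368 FPKM in adult muscle, against 7.37 in the embryo, which is 49.9-fold higher (log2 fold change 5.64). MYOT encodes myotilin, which binds alpha-actinin and filamin C and bundles actin. It had 1513 FPKM in adult muscle and 6.79 in the embryo, a 223-fold difference (7.80) and the largest of the 7 Z-disc genes. In the embryo, MYOT and ACTN2 thus stood at nearly the same level per length, with a ratio of MYOT to ACTN2 of 0.921, whereas this ratio was 4.12 in adult muscle. A ratio between genes of the same stage does not depend on how the stages are scaled to each other.

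TCAP encodes telethonin, a small protein that caps the Z-disc end of titin. It was the most abundant of the 10 genes in adult muscle with 6959 FPKM, against 79.5 in the embryo (87.5-fold, log2 fold change 6.45), and ranked 15 in the adult and 115 in the embryo among all transcripts of the table. CSRP3 encodes the muscle LIM protein, which binds telethonin and alpha-actinin and is linked to the sensing of stretch in heart muscle. Its level was 1787 FPKM in adult muscle and 69.4 in the embryo, a 25.7-fold difference (4.69). In the embryo TCAP and CSRP3 were close to each other, with a TCAP to CSRP3 ratio of 1.15, and in adult muscle the ratio was 3.89. The direction of CSRP3 turns only when fold changes are centred on the thick and thin filament transcripts (-0.26), which are described further on.

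PDLIM1 encodes a PDZ and LIM domain protein that binds alpha-actinin through its PDZ domain. It had 131 FPKM in adult muscle, against 2.91 in the embryo (45.2-fold, log2 fold change 5.50). Among the 7 Z-disc genes it had the lowest level in both stages. CMYA5 encodes myospryn, a very large protein of the costamere and the Z-disc periphery, where costameres are the sites that couple the outermost Z-discs to the cell membrane. It had 1007 FPKM in adult muscle and 6.05 in the embryo (166-fold, 7.38). The levels of CMYA5 and MYOT were alike in both stages, with a MYOT to CMYA5 ratio of 1.50 in adult muscle and 1.12 in the embryo.

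FLNC encodes filamin C, the muscle filamin, which cross-links actin at the Z-disc and under the sarcolemma. It had 474 FPKM in adult muscle and 104 in the embryo, a difference of 4.55-fold (log2 fold change 2.19) that stood below the median of all transcripts. FLNC was the highest of the 10 genes in the embryo and the seventh in adult muscle. Relative to ACTN2, its level was 1.29 in adult muscle and 14.1 in the embryo. For FLNC, the deposited FPKM values do not give the fold change that the same table lists, and which of them is in error is not known. The level, place and ratios of FLNC given here all rest on its FPKM values. Without FLNC, the median log2 fold change of the other 9 genes was 6.45.

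MYOM2 encodes M-protein, a myomesin relative that links thick filaments at the M-band and is known from fast fibres. It was the lowest of the 10 genes in adult muscle, with 128 FPKM, against 3.65 in the embryo, a difference of 35.0-fold (log2 fold change 5.13). Relative to ACTN2, MYOM2 was at 0.348 in adult muscle and at 0.496 in the embryo. The deposited annotation puts 3 transcripts at the M band, and their log2 fold changes lay close together, while their levels differed. Besides MYOM2, these were SMPX and KBTBD10. SMPX, a small stretch-responsive muscle protein, had 768 FPKM in adult muscle and 22.9 in the embryo (log2 fold change 5.07). KBTBD10, a kelch protein also known as KLHL41, had 442 and 14.2 FPKM (4.96).

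ANKRD1 and ANKRD23 encode related ankyrin repeat proteins that bind the I-band part of titin and can also act in the nucleus on transcription. ANKRD1 had 1571 FPKM in adult muscle, against 0.552 in the embryo (2847-fold, log2 fold change 11.48). ANKRD23 had 689 FPKM in adult muscle and 0.564 in the embryo (1223-fold, 10.26). These were the fourth and the eighth largest log2 fold changes among all 5248 transcripts above 0 in both stages. Their embryonic levels were nearly equal and below 1 FPKM, at ranks 4391 and 4365 of the table, so the size of both ratios rests on a low value. Their adult levels differed by 2.28-fold, with ANKRD1 the higher, and reached ranks 55 and 141. With 1 FPKM added to both stages, the log2 fold change was 9.98 for ANKRD1 and 8.79 for ANKRD23.

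**Figure D2:**
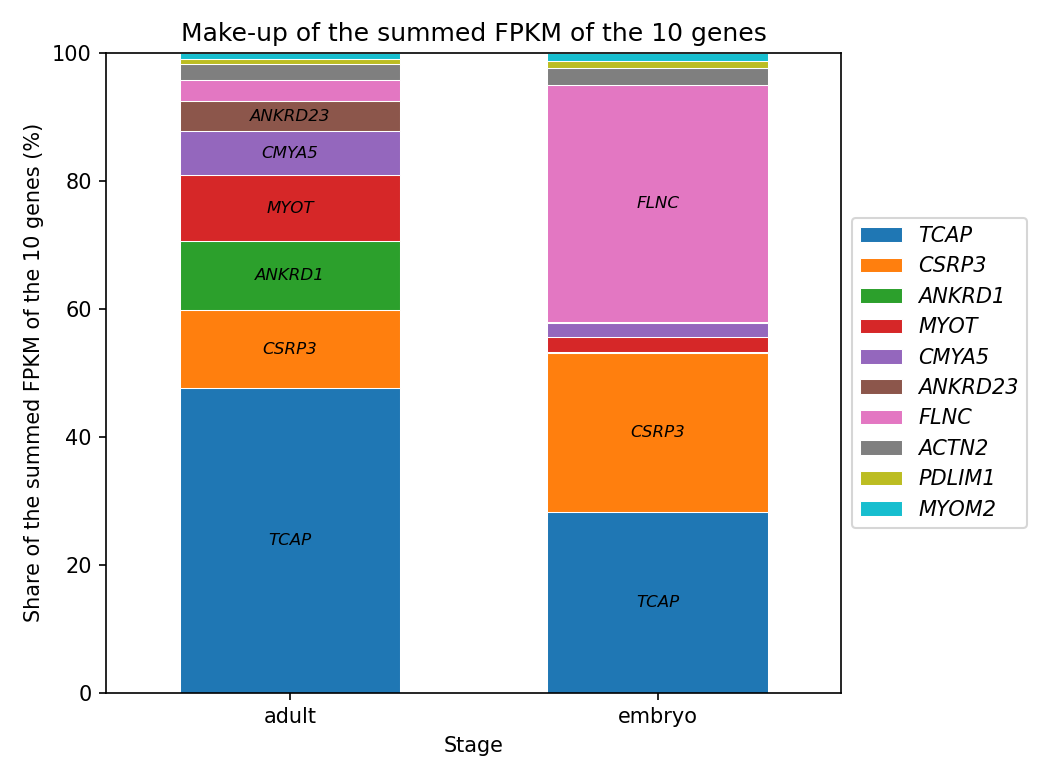
Share of each gene (%) in the summed FPKM of the 10 genes, in adult muscle (left bar) and in the embryo (right bar), from the authors' value for each stage. TCAP took 47.6% in adult muscle and 28.3% in the embryo, FLNC 3.24% and 37.0%, CSRP3 12.2% and 24.7%, and ANKRD1 10.7% and 0.197%.

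Within each stage, the order of the 10 genes differed. In adult muscle the order by FPKM was TCAP, CSRP3, ANKRD1, MYOT, CMYA5, ANKRD23, FLNC, ACTN2, PDLIM1 and MYOM2. In the embryo it was FLNC, TCAP, CSRP3, ACTN2, MYOT, CMYA5, MYOM2, PDLIM1, ANKRD23 and ANKRD1. Since no spread is known, genes next to each other in these orders, such as PDLIM1 and MYOM2 in adult muscle (131 and 128 FPKM) or ANKRD23 and ANKRD1 in the embryo, cannot be separated. FLNC, TCAP and CSRP3 together with ACTN2 held the first 4 places in the embryo, and ANKRD1 held the last place there and the third in adult muscle. The 10 values spanned 54.4-fold in adult muscle and 188-fold in the embryo.

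The summed FPKM of the 10 genes was 14628 in adult muscle and 281 in the embryo. This was 2.17% of the FPKM total of the table in adult muscle and 0.397% in the embryo. The 7 Z-disc genes made up 83.7% of the sum in adult muscle and 98.3% in the embryo. The titin-bound ANKRD1 and ANKRD23 made up 15.5% of it in adult muscle and 0.397% in the embryo, and MYOM2 0.875% and 1.30%. The embryonic shares depend on the FPKM value of FLNC. Without FLNC, TCAP took 49.2% of the sum of the other 9 genes in adult muscle and 45.0% in the embryo, CSRP3 12.6% and 39.3%, and ANKRD1 11.1% and 0.312%. The 9 genes kept their order in both stages, since leaving out a gene moves no other.

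Family relatives gave comparisons within a stage. ANKRD2, the remaining ankyrin repeat protein of this titin-bound family, had 312 FPKM in adult muscle and 7.94 in the embryo (log2 fold change 5.29). In the embryo ANKRD2 was 14.4-fold above ANKRD1 and 14.1-fold above ANKRD23, while in adult muscle ANKRD1 was 5.04-fold and ANKRD23 2.21-fold above ANKRD2. The order of the family thus differed between the stages, and no scaling between the stages can alter that. ACTN4, an alpha-actinin of non-muscle cells, had 6.35 FPKM in adult muscle and 20.8 in the embryo (-1.71), opposite to ACTN2. The ratio of ACTN2 to ACTN4 was 57.9 in adult muscle and 0.353 in the embryo.

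**Figure D3:**
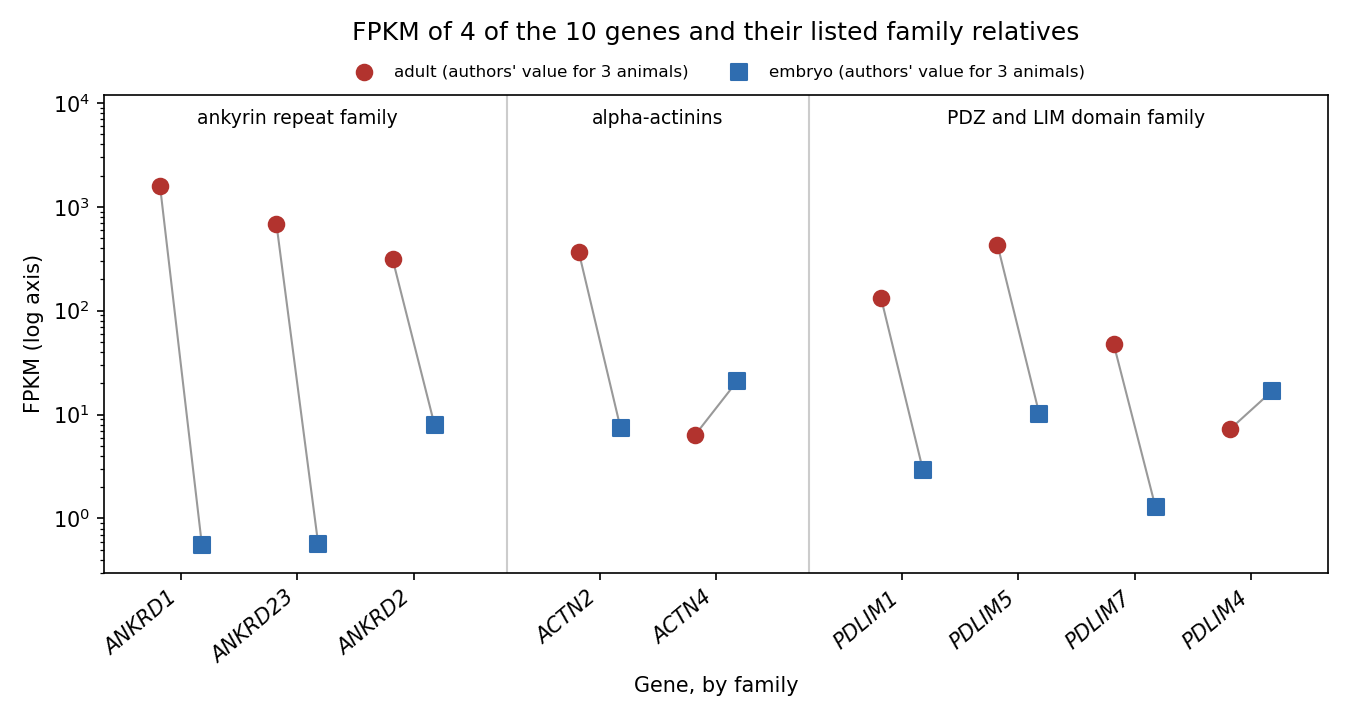
FPKM (log axis) of ANKRD1, ANKRD23, ACTN2 and PDLIM1 and of their listed family relatives ANKRD2, ACTN4, PDLIM5, PDLIM7 and PDLIM4, in adult muscle (circles) and in the embryo (squares), each the authors' value for a stage of 3 animals. ACTN4 and PDLIM4 are lower in adult muscle, and ANKRD2 lies above both other ankyrin repeat genes in the embryo and below them in adult muscle.

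Of the PDZ and LIM domain genes, 4 are listed. PDLIM5 (432 FPKM in adult muscle, 10.1 in the embryo) and PDLIM7 (47.5 and 1.27), both also Z-disc proteins that bind alpha-actinin or tropomyosin, had log2 fold changes of 5.41 and 5.22, near the 5.50 of PDLIM1. The ratio of PDLIM5 to PDLIM1 was 3.29 in adult muscle and 3.49 in the embryo. PDLIM4 went the other way, with 7.23 FPKM in adult muscle and 16.8 in the embryo (-1.21). The list of 19 symbols that these relatives come from also holds a pair of MuRF ubiquitin ligase genes, and 6 of its symbols have a row, 4 higher and 2 lower in adult muscle. Its other symbols, among them ACTN1, ACTN3, CSRP1, CSRP2, MYOM1 and MYOM3, have no row under these names and were not analysed here.

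Other Z-disc genes were also higher in adult muscle. Of 32 symbols, 16 have a row, and all 16 were higher, or 8 to 14 of them under the 5 scalings. Of all transcripts, 90.3% were higher, or 9.17% to 60.6% under the 5 scalings, so the deposited direction alone does not set these genes apart. The lists do not follow the deposited labels throughout. KBTBD10, labelled M band, is among these 16, and TRIM54, labelled Z disc, is listed with the M-band and A-band proteins. The log2 fold changes of the 16 had a median of 4.64, beside 5.64 for the 7 Z-disc genes above and 2.71 for all transcripts. The largest were FHL1, a LIM-only protein, with 3457 FPKM in adult muscle and 29.6 in the embryo (6.87), and NRAP, a nebulin relative that anchors actin during myofibril assembly, with 339 and 4.76 FPKM (6.15). CRYAB, the small heat shock protein alpha-B crystallin, followed with 2888 and 44.8 FPKM (6.01). At the low end were SMYD1, a methyltransferase needed for sarcomere assembly, with 35.7 and 8.70 FPKM (2.04), and FHL2, a LIM-only protein best known from the heart, with 2.73 and 1.22 FPKM (1.17). SMYD1 and FHL2 lay below the median of all transcripts, as FLNC did.

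Of 17 symbols of other M-band and A-band proteins, 8 have a row. All 8 were higher in adult muscle, or 4 to 8 of them under the 5 scalings, and their median was 4.90. Of all transcripts, 90.3% were higher, or 9.17% to 60.6% under these scalings. TRIM63, the ubiquitin ligase MuRF1 that binds titin near the M-band, had 161 FPKM in adult muscle and 0.741 in the embryo (7.76). Its relative TRIM54, or MuRF3, had 407 and 10.8 FPKM (5.24). CKM, the muscle creatine kinase, part of which sits at the M-band, had 7471 and 169 FPKM (5.47). The smallest changes were those of MYBPH, a myosin-binding protein (127 and 16.9 FPKM, 2.91), and HSP90AA1, a chaperone also needed for myosin folding (438 and 59.6 FPKM, 2.88).

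Of 17 symbols of other titin-bound and stretch-response proteins, which overlap with the lists above, 11 have a row. All 11 were higher in adult muscle, or 7 to 9 of them under the 5 scalings, with a median of 5.24. The shares of all transcripts were 90.3%, or 9.17% to 60.6% under these scalings. None of the 11 came near ANKRD1 and ANKRD23, the nearest being TRIM63. The small heat shock proteins HSPB8 (896 FPKM in adult muscle, 16.1 in the embryo, 5.80) and HSPB6 (119 and 27.8 FPKM, 2.09) lay far apart. In the deposited annotation, 6 transcripts carry the label titin binding, and 4 of them are ANKRD1, ANKRD23, TCAP and ACTN2. All 6 were higher in adult muscle, as were 90.3% of all transcripts, and their median was 7.11.

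**Figure D4:**
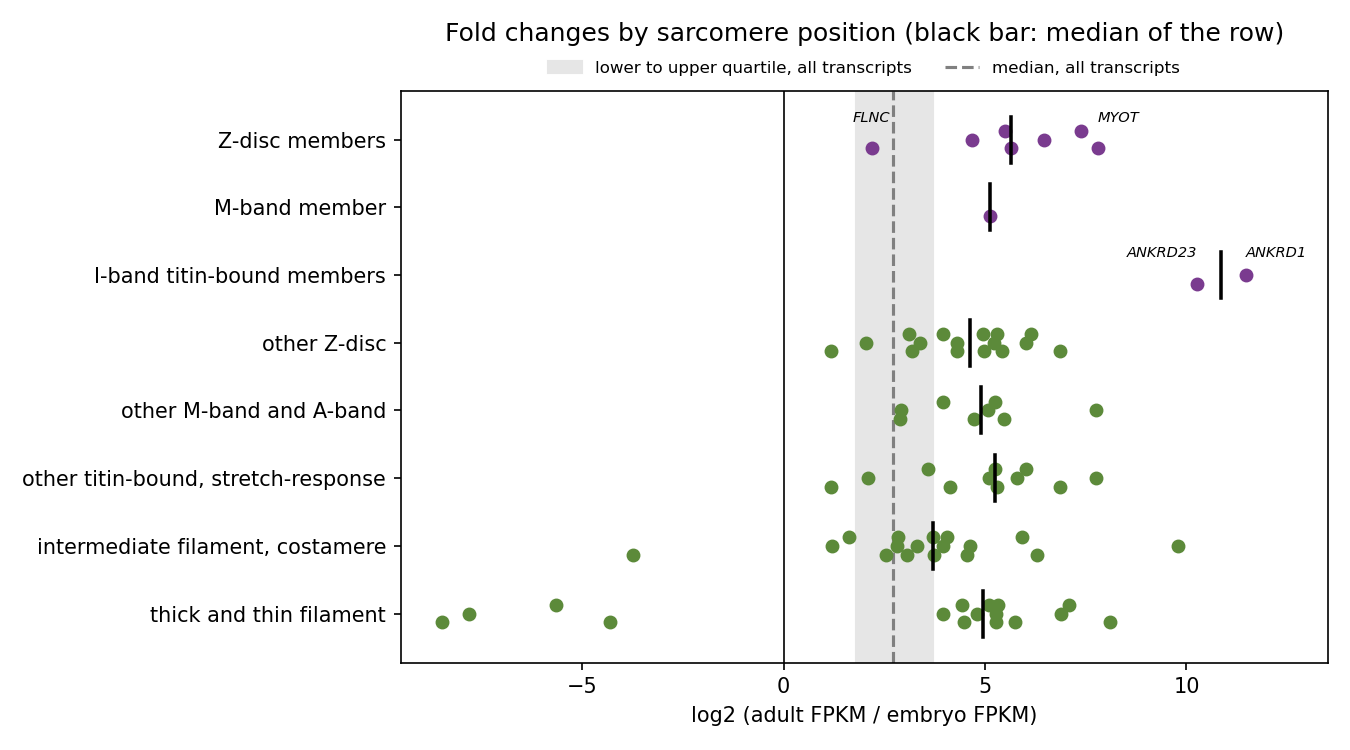
Log2 fold change (adult over embryo) of each listed transcript above 0 in both stages, by group of genes, with the 10 genes in the 3 upper rows; black bars are the medians of the rows, the dashed line is the median of all 5248 transcripts (2.71) and the grey band runs from their lower to their upper quartile. Every row apart from the lowest 2 lies wholly to the right of 0, and ANKRD1 and ANKRD23 lie to the right of every other point.

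Intermediate filament and costamere genes, listed together with the tropomodulins and leiomodins of the thin filament end, had a smaller median. Of 29 symbols, 17 have a row, 16 higher and 1 lower in adult muscle, beside 90.3% higher among all transcripts. Their median was 3.70, and -0.032 when centred on housekeeping genes. TMOD4, which caps the thin filament at its pointed end, had 1370 FPKM in adult muscle and 1.54 in the embryo (9.80). LMOD2, a nucleator of actin filaments, had 195 and 3.21 FPKM (5.92). SYNC, an intermediate filament protein, had 15.0 and 6.53 FPKM (1.21). NES, the intermediate filament nestin of immature muscle, was the 1 lower transcript, with 10.4 FPKM in adult muscle and 139 in the embryo (-3.73).

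Relative to the median of thick and thin filament transcripts, the differences were smaller. The thick and thin filament list has 17 transcripts, 13 higher and 4 lower in adult muscle, and the 16 above 0 in both stages had a median log2 fold change of 4.94. Relative to this median, 8 of the 10 genes were higher in adult muscle, by 0.19 (MYOM2) to 6.53 (ANKRD1), and CSRP3 (-0.26) and FLNC (-2.76) were lower. MYOT (2.86), CMYA5 (2.43) and TCAP (1.51) stayed higher, and ACTN2 (0.70) and PDLIM1 (0.55) were nearest to the filament median besides MYOM2 and CSRP3. The medians of the other Z-disc (4.64), M-band and A-band (4.90) and intermediate filament and costamere lists (3.70) lay below the filament median, and that of the other titin-bound and stretch-response list (5.24) lay above it. Of all 5248 transcripts, 9.17% were higher in adult muscle on this scale. The filament median includes the 4 lower transcripts, MYL4, TNNT2, ACTC1 and MYHC-EMBRYONIC, and summed FPKM gave another order. By sums, the filament list was 22.2-fold higher in adult muscle, less than CSRP3 (25.7-fold). The other Z-disc (48.9-fold), M-band and A-band (33.1-fold) and titin-bound lists (49.9-fold) then lay above the filaments, and the intermediate filament and costamere list (13.7-fold) below. Under the other 4 scalings between the stages, 9 of the 10 genes stayed higher and FLNC was lower, while 35.1% of all transcripts were higher after scaling to the FPKM total, 50% after centring on all transcripts, 60.6% on ribosomal proteins and 24.8% on housekeeping genes.

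**Figure D5:**
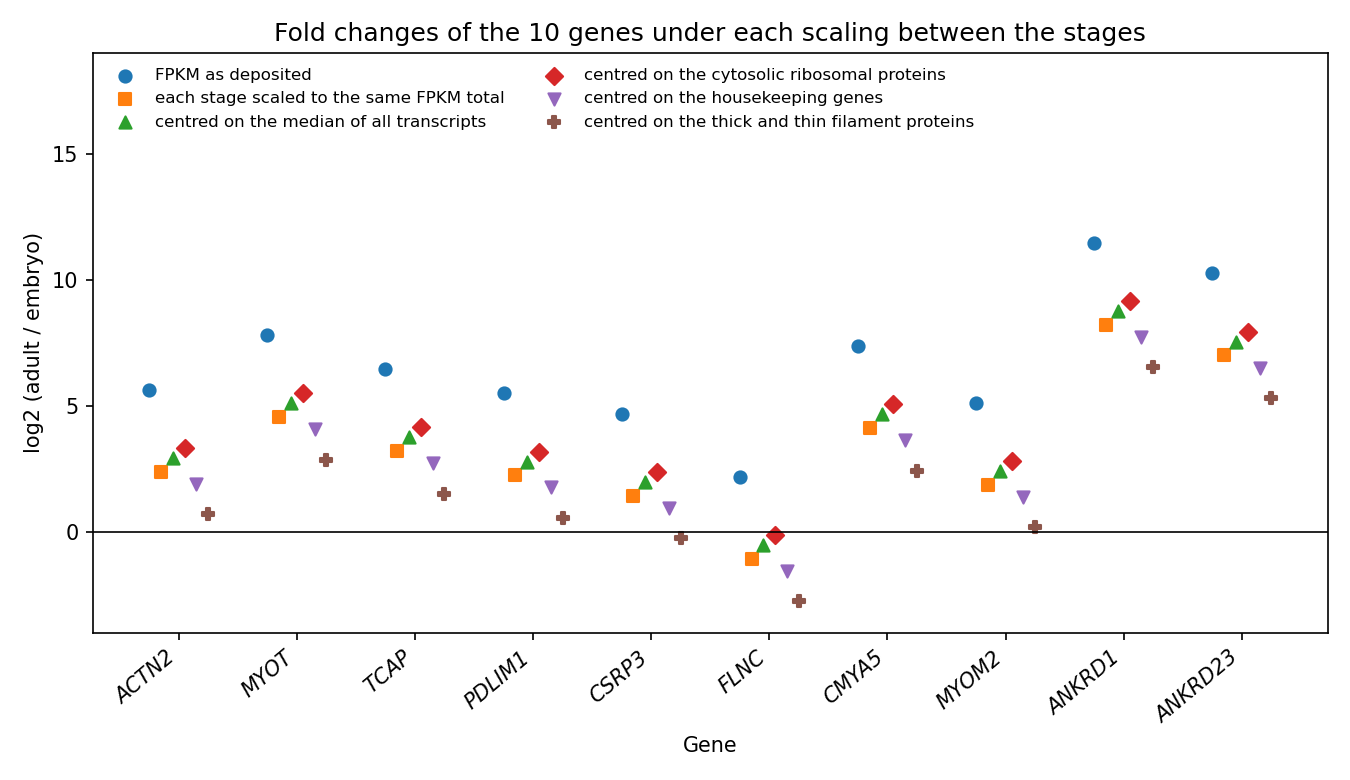
Log2 fold change (adult over embryo) of the 10 genes from FPKM as deposited and under 5 other scalings between the stages, 1 symbol per scaling. Each scaling lowers every gene by the same amount, from 2.31 to 4.94, and takes FLNC below 0, while CSRP3 is below 0 only when centred on the thick and thin filament transcripts.

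For the terms given below, a larger share of genes was called than among all background genes. The study describes its term lists as significantly enriched terms, so a larger share can follow from a term being listed at all. The labels M band, A band and costamere have no such gene numbers. The deposited gene numbers give 4861 called among 21673 background genes, or 22.4%. For the Z disc, 30 of 85 background genes were called (35.3%), for the I band 8 of 15 (53.3%), for titin binding 7 of 13 (53.8%) and for the sarcomere 13 of 30 (43.3%). The genes described here were all taken from the table of called transcripts, so they count as called in these shares wherever they carry the label. In the table they make up 4 of the 6 transcripts labelled titin binding, 3 of the 8 labelled I band and 4 of the 25 labelled Z disc. The shares are therefore not independent of how the genes were chosen. The table itself carries the Z disc label on 25 transcripts, fewer than the 30 called genes, and titin binding on 6, fewer than the 7. Of the 25 with the Z disc label, 24 were higher and 1 lower in adult muscle (median log2 fold change 4.31), beside 90.3% higher among all transcripts. The Z disc label stands on ACTN2, MYOT, TCAP and CSRP3. PDLIM1 and FLNC carry none of the labels Z disc, I band, M band, sarcomere, costamere or titin binding, and CMYA5 carries the label costamere.

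In the genome (bosTau7, the build the study aligned to), ANKRD1 lies at chr26:12571208-12581575 and PDLIM1 on the same chromosome at chr26:16605967-16646619. ANKRD23 lies at chr11:2766344-2773225, ACTN2 at chr28:9400001-9452993, MYOT at chr7:50893398-50958425 and TCAP at chr19:40691137-40692346. CSRP3 lies at chr29:25994181-26014859, FLNC at chr4:93608604-93638445, CMYA5 at chr10:10622957-10711493 and MYOM2 at chr27:311939-376195. No other listed transcript overlaps any of them. ANKRD39, another ankyrin repeat gene 2239 bases from ANKRD23, had 9.36 FPKM in adult muscle and 2.81 in the embryo (log2 fold change 1.74), so that ANKRD23 was 73.7-fold above ANKRD39 in adult muscle and 4.98-fold below it in the embryo. STARD3, a cholesterol transport gene 2138 bases from TCAP, had 4.23 and 1.98 FPKM (1.10). ATP6V1F, a proton pump subunit gene 1695 bases from FLNC, had 117 and 4.71 FPKM (4.63), a larger change than that of FLNC. By the gene order of the RefSeq annotation of ARS-UCD2.0, in which all 10 symbols were found, 7 of the 20 directly neighbouring genes are listed, with log2 fold changes of 1.10 to 4.63.

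Other transcripts were ranked by how near their pair of levels was, as the distance in log2 FPKM over the 2 stages. This gives only 2 points per gene. The closest pairs were PDLIM1 with UGP2 (distance 0.053), MYOM2 with MRPL34 (0.083) and ACTN2 with OPTN (0.094). Nearest to ANKRD1 were EEF1A2, the elongation factor form of muscle and neurons (distance 0.455), and PDK4, a kinase that inhibits pyruvate dehydrogenase (0.760). ANKRD23 had no such close transcript, its nearest being ANKRD1 (1.19) and then PDK4 (1.26). CMYA5 was among the nearest to MYOT (0.610), next to COX7A1, a muscle subunit of cytochrome c oxidase (0.609). Nearest to TCAP was the muscle enolase ENO3 (0.538), and nearest to FLNC besides the small Cajal body RNA SCARNA6 was the heat shock gene HSPA1A (0.170).

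Of the muscle fibre markers, TNNC2, MYLPF, TNNI2 and CKM were high in both stages (169 to 2099 FPKM in the embryo). The others were lower in the embryo, with 22.3 FPKM for MB, 20.1 for CASQ1 and 6.97 for CACNA1S. MYH7, the slow myosin heavy chain, had 60.8 FPKM in adult muscle and 0.450 in the embryo. Of TNNT3, 1 transcript had 20.4 FPKM in the embryo and 1 was listed at 0 there. Markers of other cell types differed between the stages as well, in a table where 90.3% of all transcripts were higher in adult muscle. Of 15 fibre symbols, 9 have a row, and their 10 transcripts were all higher in adult muscle, with a summed FPKM of 115052 in adult muscle and 3868 in the embryo. Of 13 fibroblast and matrix symbols, 6 have a row, 7 of the 8 transcripts were lower, and the sum was 112 in adult muscle and 924 in the embryo. Cartilage (4 of 6 symbols, sums of 0.682 and 19.8) and Schwann cell markers (3 of 6, sums of 0.689 and 18.9) were all lower in adult muscle, and adipocyte (3 of 7, sums of 131 and 1.60) and endothelial markers (4 of 8, sums of 42.7 and 11.3) were all higher, although 3 or all 4 of the endothelial transcripts turn lower under each of the 5 scalings and 1 adipocyte transcript does when centred on the filaments. Most of the adult adipocyte sum came from LPL (122 FPKM), while ADIPOQ had 6.75 and DGAT2 3.01 FPKM in adult muscle. Of 9 smooth muscle and pericyte symbols, 6 have a row, all higher, or 1 to 4 of them under the 5 scalings, with sums of 6809 and 458 that DES, also a fibre gene, dominates. Of 9 myoblast symbols 3 have a row, 2 higher and 1 lower in adult muscle. The lower was the fusion gene TMEM8C, with 0.176 FPKM in adult muscle and 8.33 in the embryo. The higher were MYF6 (log2 fold change 5.24) and MYOG (1.35), of which MYOG turns lower under each of the 5 scalings. None of 11 blood and immune symbols has a row. Of 11 heart symbols 3 have a row, with MYL4 and TNNT2, which embryonic skeletal muscle also uses, lower (-7.80 and -5.65) and PLN, also known from slow fibres, higher (7.89). In such bulk samples, fewer fibres and less of an RNA per fibre cannot be told apart, and the part of cell composition in the differences of the 10 genes was not tested.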

How the data were processed

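Per the labels and the study's methods, libraries came from RNA depleted of ribosomal RNA, whereas polyA RNA is given as the molecule type. The authors trimmed reads with Trim Galore, aligned them with TopHat2 (version 2.0.14) to bosTau7 and estimated abundance with Cufflinks. The FPKM values are those of the authors, 1 per stage, for transcripts they called. Their columns of fold changes, p-values and enrichment p-values were not used. FPKM divides by all mapped fragments, and the study gives a larger exonic share of reads in adult than in embryonic libraries. Through this division the difference in share enters every ratio alike. Whether it also affects some transcripts more than others was not tested. Another transcript of a gene can be absent from the table.

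Ratios, medians and counts were computed from the FPKM values as deposited in Python 3.11.15 (pandas 2.3.3, numpy 2.4.6) and checked on simulated data. Alternatives were pseudocounts of 0.1 and 1 FPKM, minimums of 2 FPKM, summing over the rows of a gene, and scaling to the FPKM total of the table or to the median of all, of 70 ribosomal protein, of 19 housekeeping or of 16 thick and thin filament transcripts. The 10 genes and the lists were chosen with earlier results of these data known. The text names the 10 genes. From each list of related genes it names up to 4 transcripts with the largest and 2 with the smallest change above 2 FPKM, and those lower in adult muscle. It also names up to 3 markers per list, the 2 nearest in level and those within 50 kb. Not all are printed. KBTBD10, further fibre markers, the lower filament transcripts and the genes named in the closing section were added after their values were seen. No sequences were analysed here.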

Additional observations from a re-analysis of the deposited data

How the results depend on the processing

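The 10 genes were all higher in adult muscle under both pseudocounts and when rows of a gene were summed, and 8 of 8 with FPKM above 2 in both stages. In all, 9 settings moved the median log2 fold change of 6.05 and none changed its sign. It was 6.04 and 5.95 with 0.1 and 1 FPKM added, 5.57 with FPKM above 2 in both stages, which leaves out ANKRD1 and ANKRD23, and 6.45 without FLNC, a setting chosen after seeing the data. It was 2.79 after scaling to equal FPKM totals, 3.34 centred on all transcripts, 3.74 on ribosomal proteins, 2.31 on housekeeping genes and 1.10 on thick and thin filament transcripts.

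Under these 5 scalings, FLNC stood at -1.07, -0.52, -0.12, -1.55 and -2.76, CSRP3 turned to -0.26 under the last, and the median of intermediate filament and costamere transcripts was -0.032 when centred on housekeeping genes. Leaving out an animal could not be done, since no animal has a value of its own. No paired analysis was possible because each stage has 1 value. The order of the genes within a stage depends on no scaling.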

Other observations

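A transcript listed only as ENSBTAG00000022244, with the labels Z disc, sarcomere and actin filament binding and no gene symbol in the table, had 2447 FPKM in adult muscle and 4.38 in the embryo, a log2 fold change of 9.12. This was larger than that of each of the 7 Z-disc genes named above. In adult muscle the transcript stood above ACTN2 (368 FPKM), and in the embryo below it (7.37 FPKM). The ratios to ACTN2 given above are to the transcript of ACTN2 alone. Apart from the 10 genes, 29 transcripts carry the label Z disc, I band, M band or titin binding. Of these, 27 were higher and 2 lower in adult muscle (median log2 fold change 4.31), where 90.3% of all transcripts were higher. The lower transcripts were ACTN4 and ACTC1, an actin of the heart and of developing skeletal muscle (36.7 FPKM in adult muscle, 724 in the embryo, -4.30).

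Among the transcripts with the label Z disc, FBXO32, the ubiquitin ligase atrogin-1, had 52.4 FPKM in adult muscle and 0.778 in the embryo (6.07), and JPH1, a junctophilin that ties the cell membrane system to the calcium store, had 242 and 6.17 FPKM (5.30). HOMER1, a scaffold protein, had 23.8 and 1.54 FPKM (3.95). MYOZ2 and MYOZ3, calsarcins that bind alpha-actinin, telethonin and calcineurin, had 492 and 15.8 FPKM (4.96) and 75.7 and 1.93 FPKM (5.29). Small differences under the same label were those of ITGB1BP2, an integrin-binding protein (19.9 and 6.52 FPKM, 1.61), and PGM5, a phosphoglucomutase relative of cell adhesions (3.43 and 1.17 FPKM, 1.56), both of which turn lower under each of the 5 scalings. For calcineurin itself, 2 transcripts of its catalytic subunit PPP3CA are listed, with log2 fold changes of 4.13 and 3.48 and at most 6.09 FPKM in adult muscle. The examples in both paragraphs were picked with their values in view.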
